A study of Homo sapiens with 10 samples.

Results

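Small nucleolar RNA (snoRNA) host genes were followed through a knockdown of PHF10 and a knockdown labelled MYC in A375, a human melanoma cell line. The 10 noncoding host genes were GAS5, ZFAS1, SNHG1, SNHG5, SNHG6, SNHG7, SNHG8, SNHG12, SNHG15 and SNHG16, chosen by name and matched by symbol to the Ensembl IDs of the count files. All 10 were found among 60623 gene IDs, and all 10 were among the 18450 genes that passed the filter on low counts. PHF10 is a subunit of the chromatin remodeller PBAF, and MYC is a transcription factor that drives genes of growth. Every library came from cells harvested 72 h after transfection with a lipid reagent, and the series asks how PHF10 bears on gene activation by MYC. Experiment 1 held 4 libraries with siRNA against PHF10 and 2 control libraries. Experiment 2 held 2 libraries labelled as MYC siRNA and 2 control libraries of its own. The series description gives the controls a control siRNA, whereas their sample labels say no treatment. Nothing says that replicates were separate cultures, so p-values measure the spread between these libraries, which may be technical. In whole-culture RNA, fewer cells and less RNA per cell cannot be told apart.

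A host gene carries snoRNAs in its introns, from which they are cut out after splicing to guide the chemical modification of ribosomal and other RNAs. The spliced exons of many noncoding host genes begin with a terminal oligopyrimidine (TOP) tract, the run of C and T after the start site that also opens ribosomal protein mRNAs and ties their translation to growth signals. These spliced RNAs hold short reading frames and many are degraded by nonsense-mediated decay once ribosomes read them. GAS5 took its name from its accumulation in growth-arrested cells. MYC is known to activate genes of ribosome production, and many noncoding host genes have been described among genes that rise in tumours.

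The host genes lie on 9 chromosomes in GRCh38 (GENCODE release 29). SNHG12 (ENSG00000197989, positions 28578538 to 28583132) and GAS5 (ENSG00000234741, positions 173863900 to 173868882) are both on the minus strand of chromosome 1. SNHG1 (ENSG00000255717) is on the minus strand of chromosome 11 from 62851988 to 62855914, and ZFAS1 (ENSG00000177410) on the plus strand of chromosome 20 from 49278178 to 49295738. SNHG5, SNHG6, SNHG7, SNHG8, SNHG15 and SNHG16 are on chromosomes 6, 8, 9, 4, 7 and 17. Their merged exons, which include introns that some annotated transcripts retain, span 923 bases in SNHG8 to 5362 bases in SNHG16.

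The bases around the start site are shown for 5 host genes, since the TOP tract is the sequence feature they are known to share with ribosomal protein genes. Each line gives 40 bases, 15 before the start annotated by RefSeq (GRCh38.p14) and 25 from it onward, read along the gene. Capitals mark a C followed by at least 4 pyrimidines within 5 bases of the start.
SNHG12, chr1:28581849-28581888, minus strand: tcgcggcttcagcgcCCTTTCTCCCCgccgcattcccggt
SNHG5, chr6:85678709-85678748, minus strand: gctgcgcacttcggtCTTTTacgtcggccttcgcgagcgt
ZFAS1, chr20:49278627-49278666, plus strand: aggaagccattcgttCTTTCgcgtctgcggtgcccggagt
SNHG7, chr9:136728160-136728199, minus strand: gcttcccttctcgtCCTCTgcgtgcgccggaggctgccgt
SNHG1, chr11:62855861-62855900, minus strand: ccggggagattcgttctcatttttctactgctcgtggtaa

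In SNHG12, SNHG5 and ZFAS1 a tract was found at the annotated start, the position looked at first, with 11, 5 and 5 bases from there. In each, the base just before that start is also a pyrimidine, so the run of C and T begins earlier. SNHG1 had no such tract by this rule, nor did GAS5, and SNHG1 is shown because its values differ from most host genes below. RefSeq windows were matched for 8 of the 10 host genes, and 6 of these 8 held the tract. In SNHG8 and SNHG16, not shown, it began 4 bases before and 5 bases after the annotated start. By the same rule the tract was held by 58 of 78 ribosomal protein windows (74.4%), by 6 of 18 windows of other noncoding host genes and by 21.1% of all 35116 windows. Starts in this table are single annotated positions, so a window without a match says only that the letters are not there. GENCODE places some starts elsewhere. The GAS5 window, from 173868996 to 173869295, does not reach the GENCODE start at 173868882, where no tract was sought. The windows of SNHG12 and ZFAS1 also leave out their GENCODE starts. The E-box CACGTG, the letters bound by MYC with MAX and the same on both strands, was in 1 of the 8 windows, 122 bases before the start of SNHG7, and in 7.26% of all windows.

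Between 20.5 and 38.4 M reads per library were assigned to genes, and the host genes had 435 to 11420 reads each, for a counting error of 0.936% to 4.79%. The targeted mRNAs checked the labels. PHF10 measured 16.1, 17.96, 15.0 and 15.7 CPM (counts per M reads assigned to genes, with library sizes scaled by TMM) in the PHF10 siRNA libraries, against 40.1 and 36.6 CPM in their controls. This was a fall of PHF10 by edgeR (−1.24 on the log2 scale, SE 0.10, adjusted p = 0.001055). In experiment 2 PHF10 was at 124 and 119 CPM under the MYC siRNA label and 124 and 125 CPM in the controls, so the controls of the experiments differed in PHF10 itself. MYC read 16.7 and 13.3 CPM where the label is MYC siRNA, against 15.0 and 26.5 CPM in the controls of experiment 2. MYC mRNA thus did not separate those groups, and directions in experiment 2 rest on the labels. MYC averaged 14.8 ± 5.2 CPM in the PHF10 siRNA libraries (SD, n = 4). It averaged 26.2 ± 8.4 CPM in their controls (SD, n = 2), and these groups overlapped too. By edgeR its log2 fold change was −0.82 after PHF10 siRNA (SE 0.33, adjusted p = 0.174). In experiment 2 it was −0.46 (SE 0.39, adjusted p = 0.688). Its sign was negative in all 20 alternatives after PHF10 siRNA, with 1 call, and in all 16 of experiment 2, with 0. Melanoma markers SOX10 and CSPG4 had medians of 785 and 1055 CPM, whereas the pigment genes MLANA and TYR were at or near 0. The immune markers PTPRC and CD3E were near 0 in every library. The 5 fibroblast markers summed to 44.1 to 75.2 CPM in PHF10 siRNA libraries and 40.4 to 64.9 CPM in their controls, and to 14.3 to 15.7 CPM in labelled MYC siRNA libraries and 17.2 to 18.3 CPM in theirs, led by PDGFRB and LUM. The 4 epithelial markers summed to 6.04 to 8.67 CPM in PHF10 siRNA libraries and 5.85 to 7.12 CPM in their controls, and to 3.50 to 4.50 CPM in labelled MYC siRNA libraries and 13 to 13.4 CPM in theirs. Most of that was KRT14, while CDH1 was near 0. The 3 endothelial markers reached at most 4.29 CPM, with CDH5 near 0. The 11 melanoma markers summed to 6500 to 6710 CPM in labelled MYC siRNA libraries, against 5150 to 5190 CPM in their controls, and overlapped in experiment 1. Of the 11, VIM had the largest median over all libraries, 3056 CPM. The part of these marker levels in the results was not tested. The share of reads outside annotated genes was 12.1% to 13.8% in PHF10 siRNA replicates 1 and 2 and control replicate 1, and 9.93% to 10.6% in the other libraries of experiment 1. Its part in the values below was not tested, beyond the fits with that split as a term.

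Levels per length, in reads per kb of merged exon and per M gene reads (RPKM), put GAS5 at the top and SNHG15 at the bottom. In the controls of experiment 2, GAS5 had 88.9 ± 1.7 RPKM, SNHG6 66.9 ± 0.27, SNHG8 43.1 ± 0.99, SNHG5 40.1 ± 1.2 and SNHG1 33.6 ± 2.1 (SD, n = 2). Below them stood SNHG16 with 21.8 ± 0.92 RPKM, ZFAS1 with 20.7 ± 0.83, SNHG7 with 13.1 ± 0.0024, SNHG12 with 7.07 ± 0.20 and SNHG15 with 6.04 ± 0.37. Among neighbours in this order, only SNHG16 and ZFAS1 overlapped between libraries, and ZFAS1 stood above SNHG16 in the controls of experiment 1. There SNHG8 overlapped SNHG5, SNHG5 overlapped SNHG1, and SNHG12 overlapped SNHG15. Ribosomal protein mRNAs had a median of 199 RPKM in the controls of experiment 2 (79 genes), above the mean of every host gene. Exon length counted from all annotated transcripts lowers the RPKM of genes with many retained introns.

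**Figure D1:**
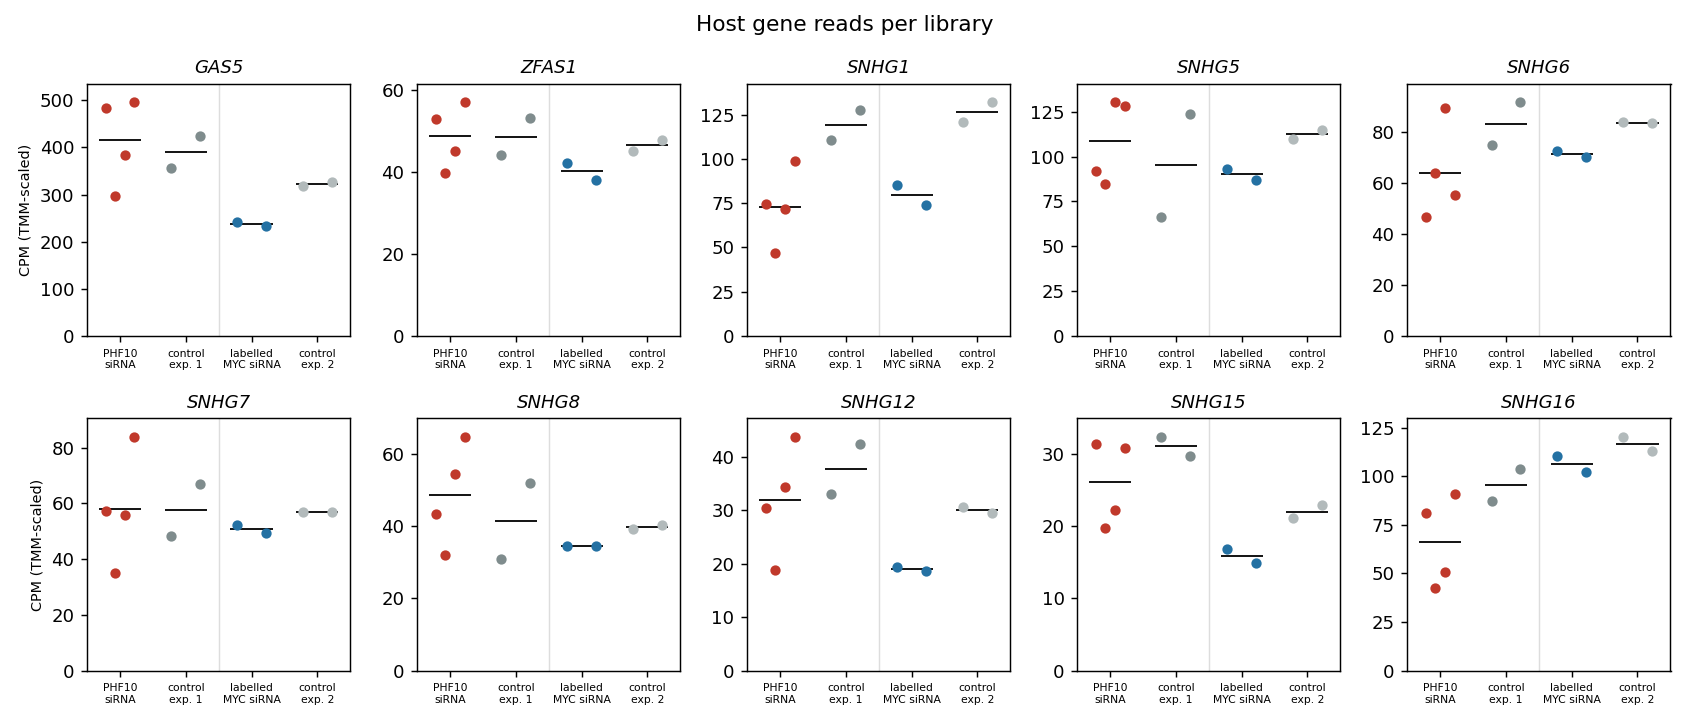
TMM-scaled CPM (y axis from 0) of the 10 host genes in each library (points), with group means (lines); PHF10 siRNA (n = 4) and its controls (n = 2) left of the divider, labelled MYC siRNA (n = 2) and its controls (n = 2) right of it. In experiment 2 both labelled MYC siRNA points lie below both control points in all 10 panels, while in experiment 1 only SNHG1 has no overlap.

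In experiment 2 the host genes were lower in the libraries labelled MYC siRNA. All 10 had a negative log2 fold change, and in all 10 both labelled libraries lay below both controls. That compares with 36% of all 18450 genes tested that were lower with no overlap in this comparison, and 33.6% that were higher. The median log2 fold change was −0.27 for the host genes and −0.01 for all genes tested. With both experiments sharing 1 spread, 0 of the 10 passed the edgeR quasi-likelihood test at a Benjamini-Hochberg adjusted p under 0.05, where the background was 0.493% of all genes, 0.211% lower and 0.282% higher. At an unadjusted p under 0.05 only SNHG1 was lower, where 6.58% of all genes were, and DESeq2 and limma-voom also called 0 of the 10.

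SNHG1, which hosts a cluster of C/D box snoRNAs, reached 85.2 and 74.0 CPM under the MYC siRNA label, against 121 and 132 CPM in the controls. Its log2 fold change was −0.66 (SE 0.27, adjusted p = 0.331). SNHG12, which hosts mostly H/ACA box snoRNAs, measured 19.5 and 18.7 CPM in the labelled libraries against 30.7 and 29.6 CPM in the controls (−0.66, SE 0.31, adjusted p = 0.398). These 2 lay furthest from their controls, at 63.1% and 63.4% of the control level in the fit.

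SNHG15, a host of SNORA9, measured 16.8 and 14.9 CPM in the labelled libraries, against 21.1 and 23.0 CPM in the controls (−0.47, SE 0.22). GAS5 measured 241 and 233 CPM in the labelled libraries, against 318 and 327 CPM in the controls (−0.44, SE 0.23). Both gaps were several times the difference between libraries of a group, yet the adjusted p was 0.402 for SNHG15 and 0.450 for GAS5. SNHG5, a host of SNORD50B, measured 93.4 and 86.8 CPM in the labelled libraries, against 110 and 115 CPM in the controls (−0.32, SE 0.29).

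The other 5 lay closer to their controls. SNHG6, a host of SNORD87, averaged 71.2 ± 1.7 CPM in the labelled libraries and 83.4 ± 0.34 CPM in the controls (SD, n = 2 each; −0.23, SE 0.25). ZFAS1, a host of the SNORD12 group, averaged 40.1 ± 2.8 CPM in the labelled libraries and 46.4 ± 1.9 CPM in the controls (−0.21, SE 0.18). SNHG8, a host of SNORA24, averaged 34.5 ± 0.039 CPM in the labelled libraries and 39.8 ± 0.91 CPM in the controls (−0.21, SE 0.31). All 10 gaps had the same sign, and these 5 were the smallest. SNHG7, a host of the SNORA17 group, averaged 50.7 ± 2.1 CPM in the labelled libraries and 57.0 ± 0.011 CPM in the controls (−0.17, SE 0.32). SNHG16, a host of the SNORD1 group, averaged 106 ± 5.8 CPM in the labelled libraries and 117 ± 5.0 CPM in the controls (−0.13, SE 0.31).

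The call in experiment 2 turned on whose spread was used. The common biological coefficient of variation was 3.39% with experiment 2 fitted alone, 26.7% with experiment 1 fitted alone and 21.4% for both experiments. The shared fit thus gave experiment 1 a smaller spread than its own libraries did. With experiment 2 fitted alone, 10 of 10 host genes were called lower by edgeR, with adjusted p from 1.09e-12 for GAS5 to 0.0292 for SNHG16. In that fit 22.6% of 17481 genes were called lower and 21.9% higher, so a call there is common. The sign was negative for each host gene in all 16 alternatives of this comparison. Since the groups overlapped for none of them, leaving out 1 library could hardly turn a sign.

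After PHF10 siRNA the host genes went in no common direction. Of the 10, 5 had a positive and 5 a negative log2 fold change, with a median of −0.12 against 0.02 for all genes tested. By edgeR 0 of the 10 passed, against a background of 6.34% of all genes, 3.58% lower and 2.75% higher, and 1 was lower at an unadjusted p under 0.05, where 11.5% of all genes were. With experiment 1 fitted alone, which has the larger spread, 0.151% of 17849 genes were called lower and 0.129% higher. DESeq2 called 1 of the 10 (SNHG1) and limma-voom 0. More of all genes were called by DESeq2 than by edgeR in both comparisons, as counted in the closing section. Each DESeq2 call named below has that larger background. The sign of the median depended on single libraries, being 0.02 without PHF10 siRNA replicate 2 and 0.04 without control replicate 2.

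SNHG1 stood lowest. It measured 74.3, 46.7, 71.4 and 98.6 CPM in the PHF10 siRNA libraries, against 111 and 128 CPM in the controls. It was the only host gene whose groups did not overlap, where 13.7% of all genes were lower with no overlap. The log2 fold change was −0.71 (SE 0.23), 61.1% of the control level, and missed the threshold (adjusted p = 0.1003). It passed by DESeq2 (adjusted p = 0.0409), with no filter (0.000419), without PHF10 siRNA replicate 4 (0.0346) and with the 3 against 3 split by reads outside genes as a term (0.0433), a split chosen after seeing the data. It missed with the planned split at the largest gap in that share (0.118), with experiment 1 fitted alone (0.249) and in the other alternatives, so that 4 of 20 called it.

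SNHG16 measured 81.3, 42.6, 51.0 and 90.9 CPM in the PHF10 siRNA libraries, against 87.5 and 104 CPM in the controls (−0.53, SE 0.27, adjusted p = 0.277). SNHG6 measured 46.7, 63.8, 89.2 and 55.1 CPM in the PHF10 siRNA libraries, against 74.8 and 91.4 CPM in the controls (−0.38, SE 0.22, adjusted p = 0.334). For both, a single PHF10 siRNA library reached into the range of the controls, replicate 4 for SNHG16 and replicate 3 for SNHG6. Without replicate 3, SNHG6 passed (−0.59, adjusted p = 0.0461).

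SNHG15 measured 31.4, 19.8, 22.2 and 30.8 CPM in the PHF10 siRNA libraries, against 32.3 and 29.7 CPM in the controls (−0.25, SE 0.19). SNHG12 measured 30.5, 18.9, 34.3 and 43.8 CPM in the PHF10 siRNA libraries, against 33.1 and 42.4 CPM in the controls (−0.25, SE 0.26). In each, PHF10 siRNA replicate 2 was the lowest library of the experiment. It was also the lowest for GAS5, ZFAS1, SNHG1, SNHG7 and SNHG16.

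GAS5 measured 483, 297, 384 and 496 CPM in the PHF10 siRNA libraries, against 357 and 425 CPM in the controls (0.09, SE 0.20). SNHG5 measured 92.2, 84.5, 130 and 128 CPM in the PHF10 siRNA libraries, against 66.3 and 124 CPM in the controls (0.19, SE 0.25). The controls of SNHG5 thus differed by more than the group means, and its log2 fold change was −0.20 without control replicate 1 and 0.71 without replicate 2. SNHG8 averaged 48.7 ± 14 CPM in the PHF10 siRNA libraries (SD, n = 4) and 41.3 ± 15 CPM in the controls (SD, n = 2; 0.23, SE 0.27). Its log2 fold change was −0.10 without control replicate 1 and 0.66 without replicate 2. ZFAS1 and SNHG7 had nearly equal group means. ZFAS1 averaged 48.6 ± 7.7 CPM in the PHF10 siRNA libraries and 48.5 ± 6.4 CPM in the controls (log2 fold change 0.00, SE 0.15). SNHG7 averaged 58.0 ± 20 CPM in the PHF10 siRNA libraries and 57.7 ± 13 CPM in the controls (0.01, SE 0.28). With 1 library left out, SNHG7 ran from −0.22 to 0.26, ZFAS1 from −0.13 to 0.14 and GAS5 from −0.043 to 0.22, so the signs of these 3, as of SNHG5 and SNHG8, rested on single libraries.

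**Figure D2:**
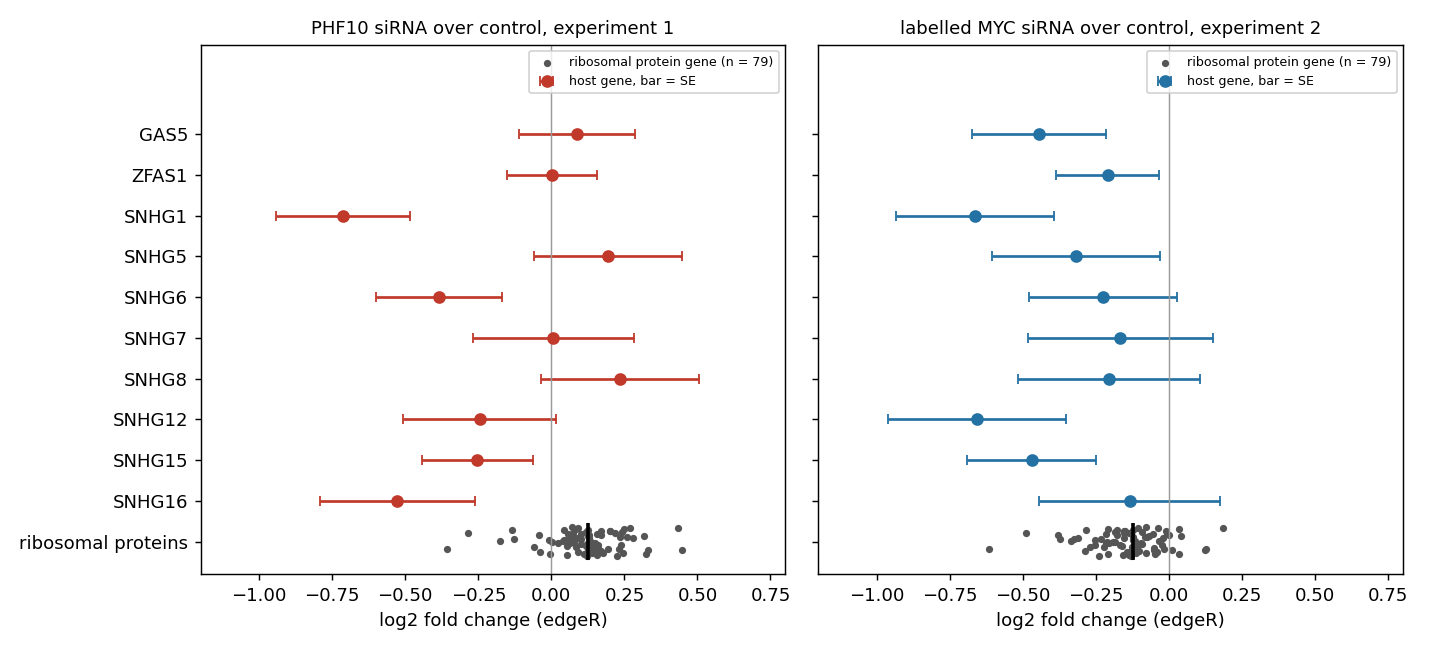
Log2 fold change (x axis, edgeR) of each host gene with its SE, and of 79 ribosomal protein genes (small points, thick line at their median), for PHF10 siRNA over its controls (left) and labelled MYC siRNA over its controls (right). The 10 host genes lie on both sides of 0 on the left, with SNHG1 at −0.71, and all below 0 on the right, while the ribosomal protein medians are 0.13 and −0.12.

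Set beside ribosomal protein mRNAs, the host genes had the lower median in both comparisons, −0.12 against 0.13 after PHF10 siRNA and −0.27 against −0.12 in experiment 2, a difference that was not tested. In experiment 2 the 79 ribosomal protein genes had a median log2 fold change of −0.12, with 72 negative, 7 positive and 0 called, also 0 by DESeq2 and limma-voom and 0 at an unadjusted p under 0.05. Of them 64 were lower and 5 higher with no overlap between groups, where 36% of all genes were lower and 33.6% higher. With experiment 2 fitted alone 48 were called lower and 3 higher, where 22.6% of all genes were called lower and 21.9% higher. RPL17, a protein of the large subunit, was lowest at −0.61 (SE 0.30, adjusted p = 0.421), close to SNHG1 and SNHG12.

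After PHF10 siRNA the ribosomal protein median was 0.13, with 69 positive, 10 negative and 0 called, also 0 by DESeq2 and limma-voom and 0 at an unadjusted p under 0.05. All 79 overlapped between the groups, where 13.4% of all genes were higher and 13.7% lower with no overlap. The median was −0.18 without control replicate 1 and 0.52 without control replicate 2, so its sign rested on the controls. RPS28 had 0.43 (SE 0.21) and RPL14 0.45 (SE 0.29), and RPL17 had −0.36 (SE 0.26). With 1 library left out they ran from 0.19 to 0.72, from 0.11 to 0.87 and from −0.61 to −0.063. Counts of ribosomal protein genes are uncertain where reads also match their many processed pseudogenes.

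Within experiment 1 the mean of the ribosomal protein mRNAs followed the split in reads outside genes, and the host gene mean did so less clearly. The mean log2 CPM of the 79 genes was 8.55 and 8.51 in PHF10 siRNA replicates 1 and 2 and 8.38 in control replicate 1, the libraries with more such reads. It was 9.12 and 9.14 in PHF10 siRNA replicates 3 and 4 and 9.03 in control replicate 2. The host genes had means of 6.05, 5.56, 6.06 and 6.35 in PHF10 siRNA replicates 1 to 4 and of 6.01 and 6.37 in control replicates 1 and 2. PHF10 siRNA replicates 1 and 3 were therefore alike in the host gene mean while differing in the ribosomal protein mean. Single host genes differed between these replicates in both directions. SNHG6 had 46.7 and 89.2 CPM, and SNHG16 had 81.3 and 51.0 CPM. SNHG5, SNHG8 and SNHG12 were each lower in every library with more reads outside genes than in the others of experiment 1. The other host genes did not part in that way. In experiment 2 both sets were lower in the labelled libraries, with host gene means of 5.84 and 5.75 against 6.13 and 6.16 in the controls, and ribosomal protein means of 8.88 and 8.84 against 8.998 and 8.998 in the controls.

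**Figure D3:**
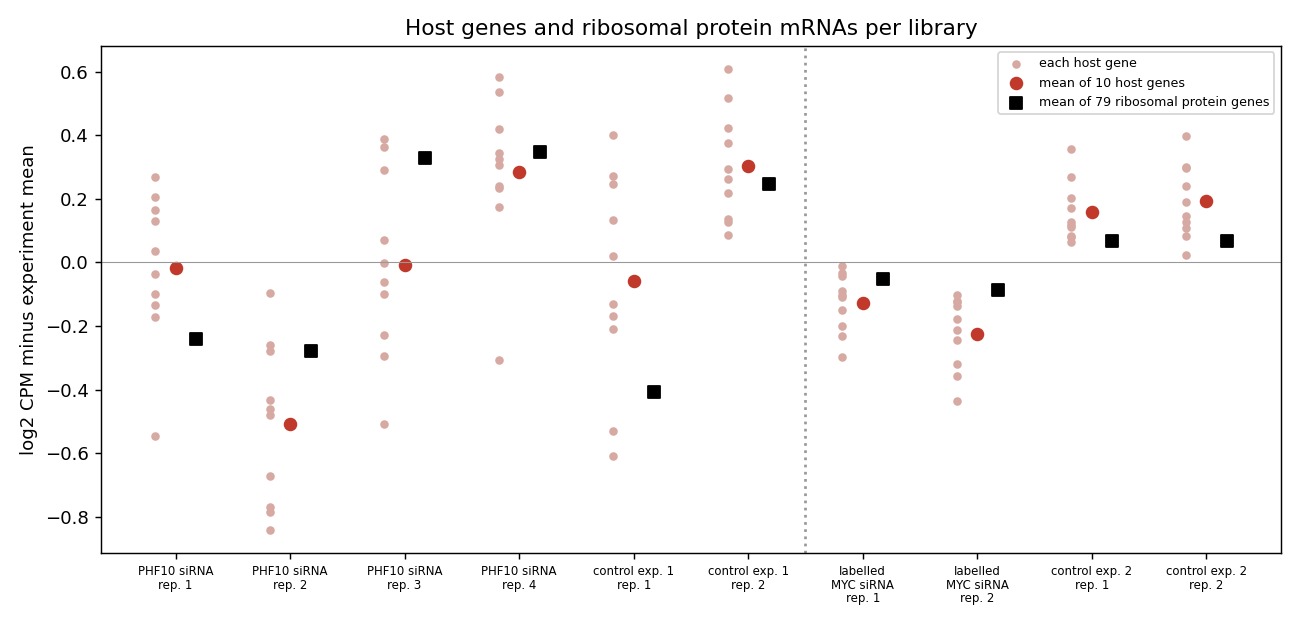
Log2 CPM minus the mean of the experiment (y axis) for each host gene (pale points), the mean of the 10 host genes (circles) and the mean of 79 ribosomal protein genes (squares) in every library. In experiment 1 the squares are below 0 in PHF10 siRNA replicates 1 and 2 and control replicate 1 and above 0 elsewhere, whereas the host gene mean is lowest in PHF10 siRNA replicate 2; in experiment 2 both means are below 0 in the labelled MYC siRNA libraries.

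The 2 effects were also compared directly. The difference of the PHF10 effect minus the labelled MYC effect had a median of 0.21 over the 10 host genes and 0.25 over the ribosomal protein genes, with 0 of 10 and 0 of 79 called by edgeR and a background of 0.385% of all genes. No host gene had an unadjusted p under 0.05, and DESeq2 and limma-voom called 0. Among the host genes GAS5 had the largest difference at 0.53 (SE 0.30, adjusted p = 0.579), and SNHG1 one of −0.05 (SE 0.36).

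SNHG1 starts 188 bases from SLC3A2, which is read in the other direction and encodes the heavy chain of amino acid transporters at the cell surface. SLC3A2 rose after PHF10 siRNA, to 369, 388, 348 and 400 CPM, against 212 and 203 CPM in the controls (log2 fold change 0.86, SE 0.11, adjusted p = 0.00411). The neighbours thus stood on opposite sides of their controls in all 4 PHF10 siRNA libraries, although only SLC3A2 passed the threshold. With experiment 1 fitted alone SLC3A2 missed it (adjusted p = 0.0649). In experiment 2 both were lower in the labelled libraries, where SLC3A2 measured 228 and 214 CPM against 293 and 300 CPM in the controls (−0.42, SE 0.12, adjusted p = 0.169). The difference of the 2 effects was 1.28 for SLC3A2 (SE 0.17, adjusted p = 0.0221). It was called in 15 of 23 alternatives and ran from 1.23 to 1.33 over all of them. The call was lost without any 1 of the 6 libraries that are controls or labelled MYC siRNA (adjusted p of 0.0823 to 0.227), with the replicate number as a block (0.0895) and without the libraries of experiment 1 with fewer reads outside genes (0.0703).

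**Figure D4:**
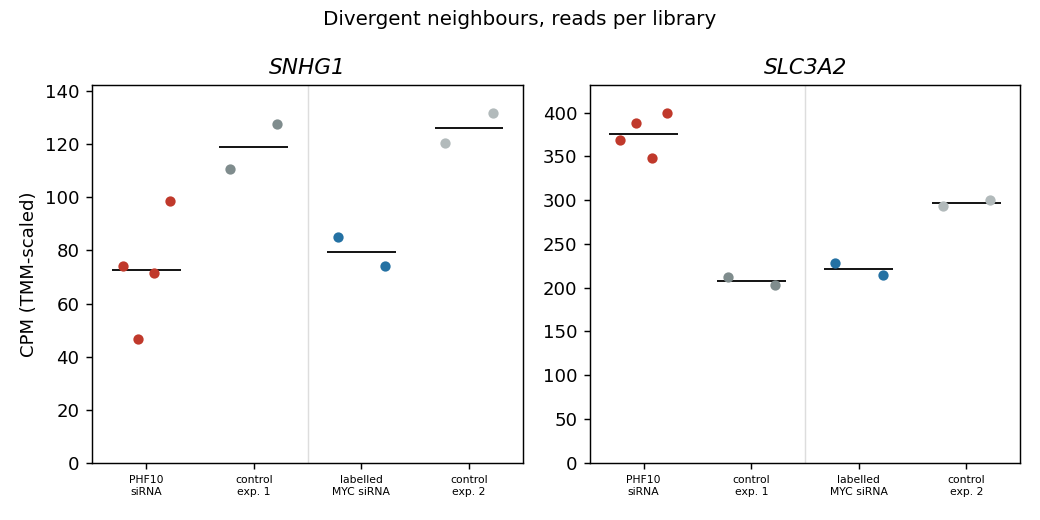
TMM-scaled CPM (y axes from 0) of SNHG1 (left) and its divergent neighbour SLC3A2 (right) in each library (points), with group means (lines). PHF10 siRNA libraries lie below their controls for SNHG1 and above them for SLC3A2, at 348 to 400 CPM against 203 and 212 CPM; labelled MYC siRNA libraries lie below their controls for both.

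ZFAS1 starts 248 bases from ZNFX1, an interferon-induced helicase gene on the other strand. ZNFX1 measured 353, 351, 159 and 169 CPM in PHF10 siRNA libraries and 341 and 161 CPM in the controls, apart along the split in reads outside genes. ZFAS1 did not part in that way, with 52.8, 39.7, 45.03 and 56.9 CPM in PHF10 siRNA libraries and 44.0 and 53.0 CPM in the controls. ZBTB37 beside GAS5 and TRNAU1AP beside SNHG12 did not pass in either comparison (log2 fold changes of 0.28 and −0.12 after PHF10 siRNA, and 0.15 and 0.11 in experiment 2). DIPK1B shares 1094 exon bases with SNHG7 on the other strand and had −0.25 after PHF10 siRNA and 0.74 in experiment 2, also without a call. Reads on the strand opposite to the host gene were kept apart and made up 8.61% of stranded reads at SNHG7, 15.0% at SNHG8 and under 1% at each of the other 8.

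Few reads were counted for the snoRNAs themselves, which lack poly(A) tails. GENCODE placed 26 snoRNA genes inside 9 of the host genes and none inside GAS5, although GAS5 is a known host. Of these, 22 overlap exons of their own host, where a read cannot be given to 1 gene, and each of these had 0 reads in all 10 libraries. The 4 in introns held 610 reads in all. SNORD99 in SNHG12 had 27, 25, 48 and 61 reads in PHF10 siRNA libraries, 28 and 53 in their controls, 27 and 16 in labelled MYC siRNA libraries and 45 and 40 in theirs. SNORD12C in ZFAS1 had 196 reads over the 10 libraries.

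Other noncoding host genes had 14 of 17 negative in experiment 2, with a median of −0.33, and 9 of 17 negative after PHF10 siRNA, with a median of −0.06. By edgeR 0 were called in either comparison. SNHG3 had −0.72 (SE 0.17, adjusted p = 0.0940) and SNHG4 −0.73 (SE 0.20, adjusted p = 0.147) in experiment 2, and SNHG21 and SNHG10 had −1.04 and −0.88. After PHF10 siRNA, SNHG4 had −0.61 (SE 0.17, adjusted p = 0.0619), SNHG25 −0.73, SNHG10 −0.52 (−0.83 to −0.12 with 1 library left out) and SNHG3 −0.32. The numbers at an unadjusted p under 0.05 were 5 lower in experiment 2 and 3 lower after PHF10 siRNA (29.4% and 17.6% of the 17), where 6.58% and 11.5% of all genes were. DESeq2 called SNHG3 and SNHG4 in experiment 2 and SNHG4 after PHF10 siRNA, and limma-voom called 0.

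Proteins that bind snoRNAs or build snoRNA particles had no call by edgeR or limma-voom, with 2 lower after PHF10 siRNA (11.1%, near the 11.5% of all genes) and 4 lower in experiment 2 (22.2%, against 6.58% of all genes) at an unadjusted p under 0.05. Of 18 tested, 17 were negative in experiment 2 (median −0.32) and 12 after PHF10 siRNA (median −0.20). DKC1, the pseudouridine synthase of H/ACA particles, had −0.63 after PHF10 siRNA (SE 0.19, adjusted p = 0.0799) and −0.32 in experiment 2, and was the only 1 of the 18 that DESeq2 called, after PHF10 siRNA. After PHF10 siRNA and in experiment 2, SHQ1, which helps DKC1 assemble, had −0.36 and −0.33, and NHP2, a core H/ACA protein, −0.38 and −0.33. NOP10, another core protein, had −0.39 (SE 0.12, adjusted p = 0.198) in experiment 2, with RUVBL1, an assembly ATPase, at −0.49 and NAF1 at −0.32. NOLC1, a nucleolar phosphoprotein, had 0.31 after PHF10 siRNA.

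Nonsense-mediated decay factors also had no call by edgeR or limma-voom, with medians of −0.16 after PHF10 siRNA and −0.10 in experiment 2 over 18 genes. At an unadjusted p under 0.05, 3 were lower after PHF10 siRNA (16.7%, against 11.5% of all genes) and 1 in experiment 2 (5.56%, against 6.58%). DESeq2 called SMG6 after PHF10 siRNA. SMG6, the endonuclease of the pathway, had −0.34 after PHF10 siRNA (SE 0.09, adjusted p = 0.0574) and 0.04 in experiment 2, while EIF4A3 of the exon junction complex had −0.35 and −0.26, and UPF2 −0.26 and −0.22, in the same comparisons. Of 20 known targets of the pathway, edgeR called 2 lower after PHF10 siRNA, where 3.58% of all genes were called lower. They were the splicing factor genes SRSF7 (−0.44, SE 0.10, adjusted p = 0.0323) and TRA2B (−0.45, SE 0.10, adjusted p = 0.0341). Each was called in 13 of 20 alternatives. Both missed the threshold with experiment 1 fitted alone (0.176 and 0.181), without control replicate 1 (0.116 and 0.137) or 2 (0.222 and 0.203), with no filter (0.0820 and 0.0812), with the replicate number as a block (0.0526 and 0.0546) and without the libraries with more reads outside genes (0.0571 and 0.0626). SRSF7 also missed it without the libraries with fewer such reads (0.0552), and TRA2B without PHF10 siRNA replicate 2 (0.0522). Other targets, such as SRSF3 at −0.49 and SRSF2 at −0.42, did not pass, and the list had medians of 0.10 after PHF10 siRNA and −0.14 in experiment 2. At an unadjusted p under 0.05, 4 of the 20 were lower after PHF10 siRNA (20%, against 11.5% of all genes) and 0 higher.

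Protein-coding TOP genes outside the ribosome had medians of 0.01 after PHF10 siRNA, with 10 of 20 negative, and −0.10 in experiment 2, with 16 of 20 negative. Single genes ran from −0.59 to 0.29 after PHF10 siRNA and from −0.28 to 0.13 in experiment 2. Of these 0 were called by edgeR, DESeq2 or limma-voom, and 0 had an unadjusted p under 0.05. EIF4A2, itself a snoRNA host, had −0.51 (SE 0.25) and NPM1 −0.59 (SE 0.34; −0.93 to −0.17 with 1 library left out) after PHF10 siRNA. Among 15 regulators of TOP mRNAs edgeR and limma-voom called 0, with medians of −0.07 after PHF10 siRNA and −0.09 in experiment 2 and with 1 higher and 1 lower at an unadjusted p under 0.05 in each (6.67% each way, where all genes had 11.2% higher and 11.5% lower after PHF10 siRNA and 6.62% and 6.58% in experiment 2). DESeq2 called TSC1 higher after PHF10 siRNA and EIF4EBP2 lower in experiment 2. EIF4EBP2, a repressor of cap-dependent translation, had −0.75 in experiment 2 (SE 0.15, adjusted p = 0.0691), while LARP1, which binds TOP mRNAs, had −0.22 after PHF10 siRNA and −0.23 in experiment 2, and TSC1, an inhibitor of mTOR signalling, 0.29 and 0.24.

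The 6 genes most like the mean of the host genes over 10 libraries were RPL36A, ANXA11, CCDC86, PRMT3, TAF1D and INTS13, out of 11534 with a mean of at least 5 CPM. Likeness was the root mean square difference in log2 CPM after centring each experiment, which was 0.0382 for RPL36A to 0.0576 for INTS13. The median was 0.226 for ribosomal protein genes, 0.297 for all candidates and 0.187 for the host genes themselves, of which SNHG6 was the least like their mean. RPL36A measured 20.4, 15.7, 20.5 and 24.9 CPM in PHF10 siRNA libraries against 20.2 and 25.8 CPM in their controls, and 12.8 and 12.6 CPM in labelled MYC siRNA libraries against 15.8 and 16.3 CPM in theirs.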

How the data were processed

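The deposited values are raw read counts per Ensembl gene. Per the submitters' processing notes the authors used cutadapt, STAR and the build GRCh38.p13 (hg38); versions and the annotation were not stated there. The labels' protocols describe poly(A)-selected, directional libraries and single reads of 100 nt. The count column for the strand opposite to the read was used, since it held nearly all gene reads, and summary lines (19.1% to 23.6% of a library) stayed out of library sizes. From these counts, edgeR 4.0.16 (R 4.3.3) fitted all 10 libraries as 4 group means by quasi-likelihood with TMM factors, filterByExpr and robust spread, leaving 6 residual degrees of freedom. P-values were Benjamini-Hochberg adjusted over 18450 genes and called under 0.05. Mean log2 CPM used a prior count of 2. Gene coordinates are those of GENCODE release 29, and promoter windows those of RefSeq. Alternatives were DESeq2 1.42.0, limma-voom (limma 3.58.1), other scaling and filters, the unstranded column, a fit per experiment, a block on replicate number, splits by reads outside genes, and each library left out. The scripts were tested on simulated data. Named genes were the 10 host genes, PHF10, MYC, their neighbours, the 6 genes with the likest profile and, per list, up to 4 with the smallest unadjusted p in each comparison; genes outside that rule were chosen after their values were seen. The host genes and lists were chosen with earlier results of these data known.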

Additional observations from a re-analysis of the deposited data

Results flagged for a closer look

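SLC3A2, the divergent neighbour of SNHG1, had effects that differed between the experiments, with a difference of 1.28 on the log2 scale (SE 0.17, edgeR adjusted p = 0.0221): it was higher in 4 of 4 PHF10 siRNA libraries and lower in 2 of 2 labelled MYC siRNA libraries than in all controls of their own experiment. PHF10 differed likewise, by −1.21 (SE 0.16, adjusted p = 0.0221), being lower in 4 of 4 PHF10 siRNA libraries than in both controls. Each difference was called in 15 of 23 alternatives, with adjusted p of up to 0.227 for SLC3A2 and 0.215 for PHF10 when 1 library of experiment 2 was left out. SNHG25 measured 2.30 CPM in PHF10 siRNA replicate 4, set apart from the other 3 PHF10 siRNA libraries by a gap of 0.847 of the range of the group. Chance alone sets a library apart this far in about 1 of 20 groups.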

How the results depend on the processing

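Counts of called genes moved with the tool, the filter and the libraries used, and in experiment 1 the signs of some fold changes also turned when 1 library was left out. With edgeR after PHF10 siRNA, 508 genes were higher and 661 lower; the counts were 1040 and 1140 with DESeq2, 1135 and 1237 with no filter, 23 and 27 with experiment 1 fitted alone, and 68 to 650 and 136 to 737 with 1 library left out. In experiment 2, 52 were higher and 39 lower, against 358 and 364 with DESeq2, 130 and 81 with limma-voom, 453 and 458 with no filter, 3827 and 3954 alone, and 0 and 0 with any 1 of its 4 libraries left out. For the difference of the effects, 48 and 23 became 363 and 270 with DESeq2, 585 and 333 with no filter, 27 and 11 with no scaling factors, and 1 to 91 and 0 to 49 with 1 library left out. A term for the library with most reads outside genes gave 130 and 98 in experiment 2 and 91 and 48 for the difference. The settings with no scaling factors, with a split of experiment 1 into 3 against 3 libraries, or with a part of it left out were chosen after seeing the data. The split gave 1073 and 1394 after PHF10 siRNA, 265 and 293 in experiment 2 and 284 and 205 for the difference. Leaving out the part with fewer reads outside genes gave 140 and 383 after PHF10 siRNA and 6 and 0 for the difference; leaving out the other part gave 161 and 101 for the difference.

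Host genes called lower, 0 in both comparisons, became 1 after PHF10 siRNA with DESeq2 and the 3 against 3 split, 2 with no filter and 0 to 1 with 1 library left out; in experiment 2 they became 1 with no filter and 10 alone. Ribosomal protein genes called higher after PHF10 siRNA became 14 of 79 with that split and 2 without the part with more reads outside genes. That split also called more of all genes higher, as counted above. It was chosen after seeing the data and parts the same libraries as the ribosomal protein mean did. In experiment 2 the split gave 1 lower, and the fit alone 3 higher and 48 lower. For the difference the split gave 1 higher. With 1 library left out, the host gene median ran from −0.27 to 0.04 after PHF10 siRNA, from −0.33 to −0.24 in experiment 2 and from 0.10 to 0.39 for the difference, and the ribosomal protein median from −0.18 to 0.52 after PHF10 siRNA and from −0.054 to 0.61 for the difference. The cause was not tested.

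A replicate block called 1 host gene lower after PHF10 siRNA (SNHG6, −0.60, adjusted p = 0.0441), and 0 and 0 genes in experiment 2 and 1 and 0 for the difference. Same-numbered libraries deviated from their group means with r of 0.484, −0.297 and −0.0309. The deviations of 2 controls mirror each other, so crossed numbers give the same r with the opposite sign. These values therefore cannot show whether the numbers pair the libraries. With 2 controls per experiment, the SE of a host gene's log2 fold change was 0.15 to 0.32, which limits what could be detected.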
